A study of Mus musculus with 6 samples.

Results

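Expression of 6 genes that encode inhibitors of serine proteases was compared between mouse dendritic cells with and without the neutrophil surface protein Ly6G. They were Slpi, Serpinb1a, Serpinb2, Serpinb9, Serpinb6a and Serpinb6b, 6 of the 18193 genes that the platform annotation names alone on at least 1 probe set. A probe set is a group of array probes designed for 1 transcript, and 8 of the 45101 probe sets in the deposited table carried one of these symbols and no other. The genes were picked with the difference between the sorted populations in view, so that difference is described here without a test.

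Bone marrow of C57BL/6 mice was cultured in 10 ng/ml GM-CSF, a growth factor that drives dendritic cells from marrow precursors, and at day 6 cells with CD11c and MHC class II on their surface were sorted by flow cytometry into Ly6G+ dendritic cells (Ly6G+ DC, n = 3) and Ly6G- dendritic cells (Ly6G- DC, n = 3). Strain, growth factor, day and the CD11c and MHC class II gates were the same in both groups. Each sample's RNA was measured on 1 Affymetrix mouse expression array. Whether the arrays of a group stand for separate cultures or mice is not stated in the labels, so their spread may be technical.

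Serpins trap the protease they inhibit: the enzyme cuts an exposed loop of the inhibitor, the inhibitor changes shape, and both are lost in a covalent complex. Serpins of clade B lack a classical secretion signal and mostly stay inside the cell, where they protect it from its own granule proteases or from those of killer lymphocytes. Slpi belongs to another family, the whey acidic protein (WAP) inhibitors, which are small, secreted and bind the protease without being consumed. Neutrophils and their precursors carry large stores of such proteases. On the mouse genome, Serpinb1a, Serpinb6b, Serpinb9 and Serpinb6a lie on chromosome 13, where Serpinb6b and Serpinb9 are neighbouring coding genes, Serpinb2 lies on chromosome 1 between Serpinb7 and Serpinb10, and Slpi lies on chromosome 2 (RefSeq, assembly GRCm38.p6).

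Across the table, limma called 0 of 28254 probe sets at an adjusted p under 0.05 (a percent called of 0, smallest adjusted p = 0.165), and 1589 had an unadjusted p under 0.05. These 28254 were kept because their signal lay above the 40th percentile of the array on 3 or more of the 6. The arrays fell on 2 sides by the signal of the hybridization controls, transcripts added just before hybridization: their geometric mean was 1529 to 2039 on Ly6G+ DC 1, Ly6G+ DC 3 and Ly6G- DC 1 (low side) and 6688 to 12842 on Ly6G+ DC 2, Ly6G- DC 2 and Ly6G- DC 3 (high side). Actb signal at the 3' end over that at the 5' end, a sign of how complete the labelled RNA was, came to 1.17 to 1.49 on low side arrays and 3.98 to 6.85 on high side arrays. Results are therefore also given within each side, where 2 arrays of one group stand against 1 of the other. The high side was uneven: the controls stood at 6688 on Ly6G+ DC 2, against 12321 and 12842 on Ly6G- DC 2 and 3. Group and control signal thus cannot be told apart within it. Of 15 neutrophil markers 14 were kept, and their summed signal was 85811 to 109943 in Ly6G+ DC and 11131 to 27224 in Ly6G- DC; S100a8 and S100a9 were above the 40th percentile on all 6 arrays. Of 12 dendritic cell markers all were kept and had negative log2 fold changes (median -0.84), as 7391 of all 13262 kept genes had. Of these 12, 7 were lower on every Ly6G+ DC array, where 7.81% of all kept genes were. The sums of the 12 markers overlapped, at 72331 to 143993 in Ly6G+ DC and 118012 to 261381 in Ly6G- DC. On the high side arrays they were set mostly by H2-Aa and Cd74. H2-Aa stood at 14475 to 22344 on the low side arrays and at 62040 to 120546 on the high side arrays. Of 10 macrophage markers 9 were kept, with sums of 29925 to 41847 in Ly6G+ DC and 27842 to 53009.9 in Ly6G- DC, and of 9 eosinophil, basophil and mast cell markers 6 were kept, with sums of 1817 to 3626 in Ly6G+ DC and 1219 to 1896 in Ly6G- DC. Of these 6, 2 were higher on every Ly6G+ DC array, where 4.97% of all kept genes were. They were the eosinophil granule genes Prg2 and Epx, with log2 fold changes of 2.61 ± 0.53 and 1.98 ± 0.64 (SE). Cpa3 and Mcpt8 had positive log2 fold changes (0.97 and 0.65) and Gata2 and Kit negative ones (-0.25 and -0.17), all with overlapping groups. Ly6g itself was the sole symbol of 0 probe sets.

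Slpi and 2 serpins, Serpinb1a and Serpinb2, had the larger signals in Ly6G+ DC, Serpinb6b had the smaller one, Serpinb6a differed little, and the 2 probe sets of Serpinb9 pointed in opposite directions. Of the 8 probe sets, 7 were kept. Of these 7, 2 were higher on every Ly6G+ DC array than on every Ly6G- DC array, where 4.49% of all kept probe sets were, and 1 was lower on every Ly6G+ DC array, where 7.24% were. Their log2 fold changes (Ly6G+ DC over Ly6G- DC, on log2 of signal + 16) were positive for 5 and negative for 2, with a median of 1.18 beside -0.06 over all kept probe sets. With the 2 dim probe sets at their lower bounds the median was 0.50. Both medians are the value of Serpinb9 1439790_at, whose groups overlapped and whose sign turned between the sides. Because the genes were chosen on this contrast, these counts describe the choice and carry no further weight.

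**Figure D1:**
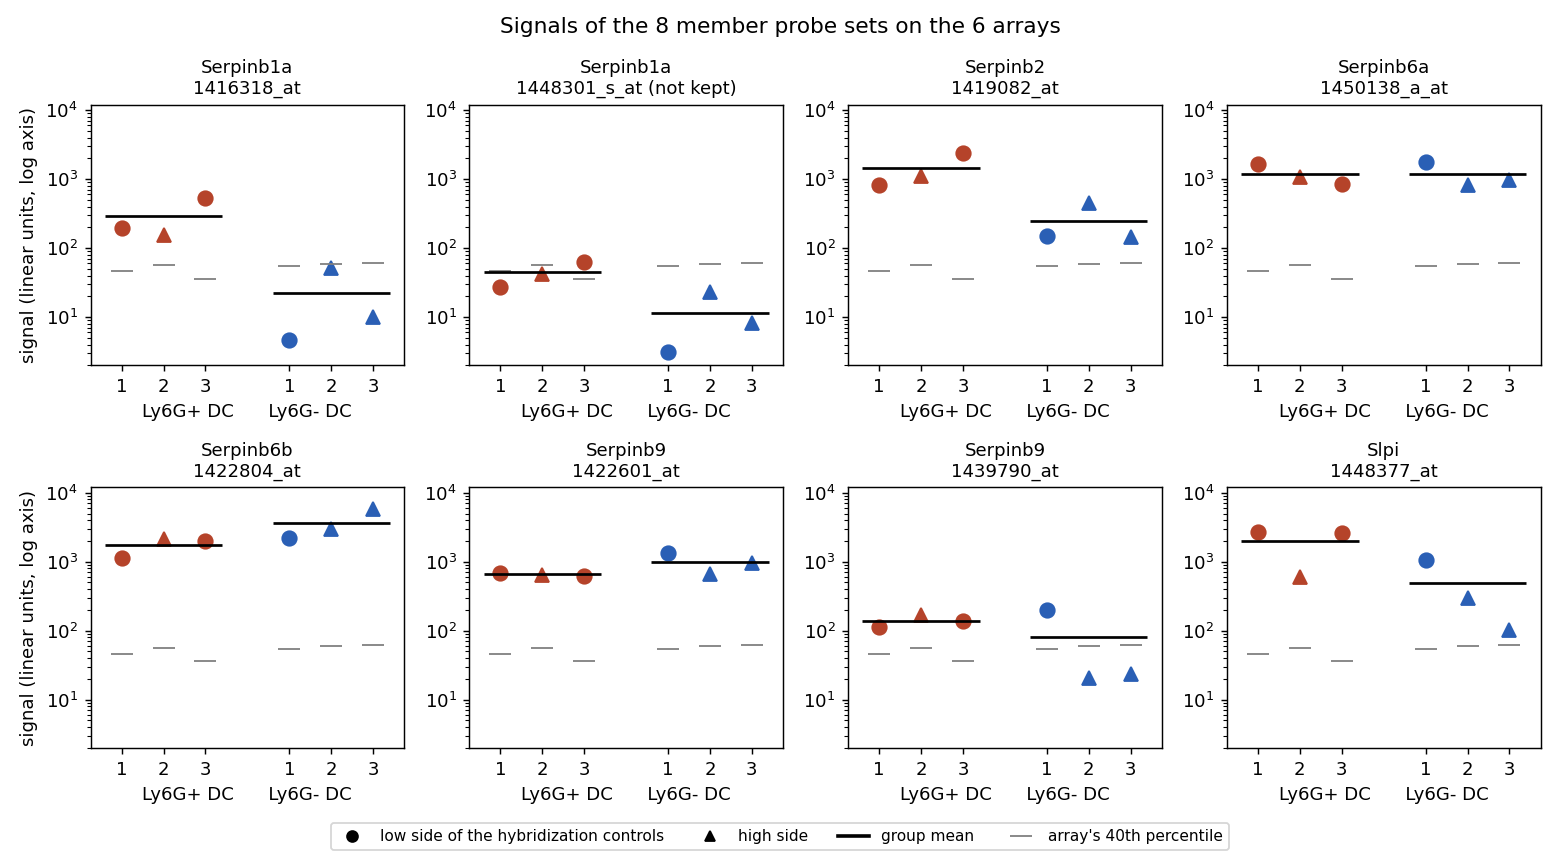
Signal (linear units, log axis) of each of the 8 probe sets on the 3 Ly6G+ DC and 3 Ly6G- DC arrays, with circles for the low and triangles for the high side of the hybridization controls, black lines for group means and grey dashes for each array's 40th percentile. Serpinb1a 1416318_at lies above the dashes on the Ly6G+ DC arrays and below them on the Ly6G- DC arrays, with Ly6G- DC 2 at 51.8 closest to its dash.

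Slpi encodes secretory leukocyte protease inhibitor, which blocks neutrophil elastase and cathepsin G outside the cell. Its probe set 1448377_at had signals of 2742, 598 and 2580.1 on Ly6G+ DC 1, 2 and 3, against 1068, 301 and 102 on Ly6G- DC 1, 2 and 3. The groups overlapped, because Ly6G+ DC 2 lay under Ly6G- DC 1. The mean signal was 1973 ± 1194 in Ly6G+ DC, against 490.4 ± 510.4 in Ly6G- DC (± SD, 3 arrays each), and the log2 fold change was 2.25 ± 0.78 (SE from limma). In samples of mixed RNA, more cells of a type and more RNA per cell cannot be told apart, here and in all that follows.

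The Slpi signal also followed the sides of the hybridization controls. On the low side Ly6G+ DC 1 and 3 stood at 2742 and 2580.1 and Ly6G- DC 1 at 1068, and on the high side Ly6G+ DC 2 stood at 598 and Ly6G- DC 2 and 3 at 301 and 102. Within either side the Ly6G+ DC arrays were thus the higher ones, with log2 fold changes of 1.30 within the low and 1.67 within the high side. With the side as a block in limma the log2 fold change was 1.49 ± 0.37 (SE). Inside the high side Slpi fell as the control signal rose, from 6688 on Ly6G+ DC 2 to 12321 and 12842 on Ly6G- DC 2 and 3. Neither the high side value nor the block separates group from control signal there. The part of the sides in the overlap was not tested beyond these values.

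Serpinb1a, also known as monocyte and neutrophil elastase inhibitor, acts inside neutrophils and related cells on elastase, proteinase 3 and cathepsin G. Its probe set 1416318_at had signals of 198, 156 and 528 on the Ly6G+ DC arrays, against 4.60, 51.8 and 10.0 in Ly6G- DC. All Ly6G+ DC arrays were above their 40th percentiles of 36.0 to 56.8, and all Ly6G- DC arrays were below theirs of 54.6 to 61.7. The probe set was kept through the Ly6G+ DC arrays alone, and its level in Ly6G- DC is known only as an upper limit.

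With each Ly6G- DC array set to no less than its 40th percentile, Serpinb1a was at least 3.64-fold higher in Ly6G+ DC. The fitted log2 fold change of 3.03 ± 0.60 (SE) depends on the number added before taking logs: it was 4.10 with 1 added and 1.95 with 64 added. Within the low side it was 4.05 and within the high side 2.03, values that also rest on dim Ly6G- DC signals. A different probe set of the gene, 1448301_s_at, whose suffix marks probes shared with other transcripts, was above the 40th percentile on 1 of 6 arrays and was not kept. It had signals of 27.7, 42.8 and 62.5 on the Ly6G+ DC arrays, against 3.17, 23.1 and 8.10 in Ly6G- DC. Only Ly6G+ DC 3 was above its percentile, so no fold and no order of the arrays is given for this probe set.

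Serpinb2 encodes plasminogen activator inhibitor 2, which blocks urokinase and is strongly induced in activated monocytes and macrophages. Probe set 1419082_at had signals of 811, 1129 and 2424 on the Ly6G+ DC arrays, against 150.3, 454 and 143 in Ly6G- DC. The lowest Ly6G+ DC array lay above the highest Ly6G- DC array, and all 6 arrays were above the 40th percentile. The mean was 1455 ± 854 in Ly6G+ DC, against 249 ± 177 in Ly6G- DC (± SD, 3 arrays each).

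The log2 fold change of Serpinb2 was 2.51 ± 0.51 (SE), with 3.09 within the low side, 2.07 within the high side and 2.58 ± 0.51 with the side as a block. Between same-numbered arrays the log2 difference was 2.31 for number 1, 1.29 for number 2 and 3.94 for number 3. In both groups the array with the highest Serpinb2 signal was also the one with the highest neutrophil marker sum, Ly6G+ DC 3 and Ly6G- DC 2. For Serpinb1a 1416318_at such an order can be read in Ly6G+ DC alone, where number 3 was likewise highest.

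**Figure D2:**
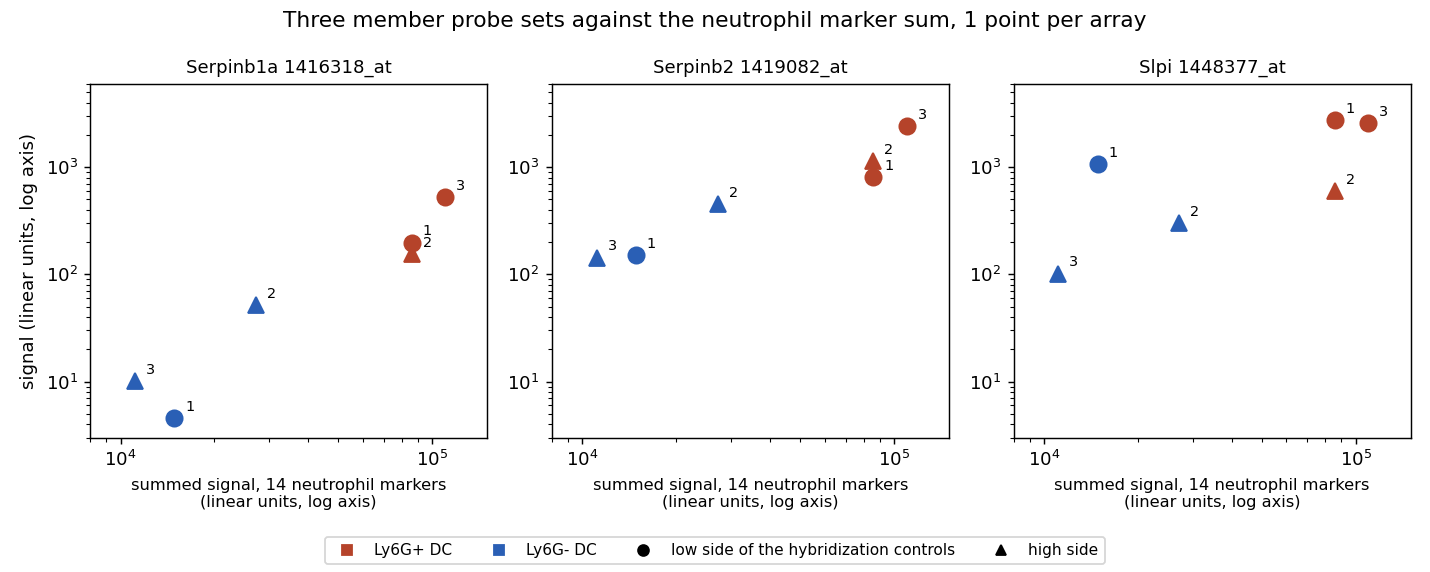
Signal of Serpinb1a, Serpinb2 and Slpi (vertical, log axis) against the summed signal of 14 neutrophil markers (horizontal, log axis), 1 point per array, numbered as in the labels, with circles for the low and triangles for the high side of the hybridization controls. Ly6G+ DC 3, with the highest marker sum of 109943, has the highest Serpinb1a and Serpinb2 signals, the Serpinb1a points of Ly6G- DC all lie under the 40th percentile of their arrays and have no order, and Slpi is higher on Ly6G- DC 1 (1068) than on Ly6G+ DC 2 (598).

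The neutrophil marker sum was 85811, 85932 and 109943 on Ly6G+ DC 1, 2 and 3, against 14887, 27224 and 11131 on Ly6G- DC 1, 2 and 3. In Ly6G- DC most of it was Mmp8, at 8578, 13809 and 8777. Mmp8 differed least of the 14 markers, with a log2 fold change of 0.59 beside a median of 3.40. Ly6G- DC 2 had the highest sum of its group and also the highest Serpinb2 signal of its group. Slpi did not follow this order in Ly6G- DC, where number 1 was highest. The part of neutrophil and eosinophil transcripts in the Serpinb1a, Serpinb2 and Slpi values was not tested.

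Serpinb9 encodes the inhibitor of granzyme B, the killing protease of cytotoxic lymphocytes, and is known to protect dendritic cells and lymphocytes from it. Probe set 1422601_at had signals of 694, 637 and 628 on the Ly6G+ DC arrays, against 1343, 668 and 949 in Ly6G- DC. The Ly6G+ DC arrays lay close together, and 1 of them, number 1, was above Ly6G- DC 2, so the groups overlapped. The mean was 653 ± 35.5 in Ly6G+ DC, against 987 ± 339 in Ly6G- DC (± SD, 3 arrays each), with a log2 fold change of -0.53 ± 0.32 (SE).

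The other Serpinb9 probe set, 1439790_at, had signals of 112, 166 and 138 on the Ly6G+ DC arrays, against 200.4, 20.5 and 23.2 in Ly6G- DC. Ly6G- DC 1 was the highest of all 6 arrays, while Ly6G- DC 2 and 3, both high side arrays, were below the 40th percentile. Its log2 fold change was 1.18 ± 0.65 (SE) over all arrays, -0.62 within the low side and 2.27 within the high side. By array number it was -0.75 for number 1, 2.32 for number 2 and 1.97 for number 3. Number 1 of each group also carries another array name in the titles than numbers 2 and 3. The 2 probe sets thus gave no common direction for Serpinb9, and the direction of 1439790_at turned between the sides; the cause was not tested.

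Serpinb6a and Serpinb6b are close relatives. Human SERPINB6 inhibits cathepsin G, and Serpinb6a is its mouse counterpart. Serpinb6a, probe set 1450138_a_at, had signals of 1638, 1057 and 851 on the Ly6G+ DC arrays, against 1783, 812 and 965 in Ly6G- DC. The groups overlapped over nearly their whole range, with means of 1182 ± 408 in Ly6G+ DC, against 1187 ± 522 in Ly6G- DC (± SD, 3 arrays each) and a log2 fold change of 0.02 ± 0.38 (SE). It was highest on number 1 in both groups.

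Serpinb6b, probe set 1422804_at, had signals of 1124, 2145 and 1989 on the Ly6G+ DC arrays, against 2209, 2975 and 5754 in Ly6G- DC. All Ly6G+ DC arrays were lower, but Ly6G+ DC 2 and Ly6G- DC 1 were nearly equal, and Ly6G- DC 3 stood well above the rest. The mean was 1753 ± 550.3 in Ly6G+ DC, against 3646 ± 1865 in Ly6G- DC (± SD, 3 arrays each). The log2 fold change was -0.99 ± 0.41 (SE), with -0.56 on the low side and -0.94 on the high side. With the side as a block it was -0.75 ± 0.33 (SE). On the high side Serpinb6b rose with the control signal (6688 on Ly6G+ DC 2, 12321 and 12842 on Ly6G- DC 2 and 3). Neither the high side value nor the block separates group from control signal there. With all arrays scaled to a common median the log2 fold change of Serpinb6b was -0.66 and the groups overlapped. That scaling moved the median over all kept probe sets up by 0.30. The dendritic cell markers were on the same side, and their part in the Serpinb6b values was not tested.

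**Figure D3:**
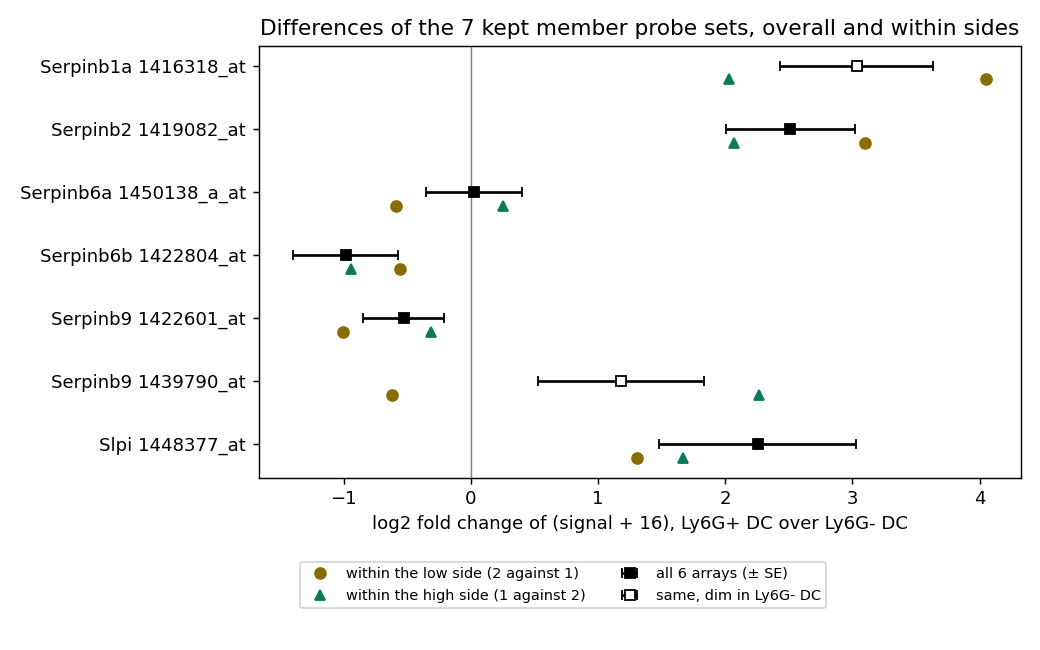
Log2 fold change of (signal + 16), Ly6G+ DC over Ly6G- DC, of each of the 7 kept probe sets (squares, all 6 arrays, bars ± SE from limma, open where the Ly6G- DC mean lay under the 40th percentile) and within the low side (circles) and the high side (triangles) of the hybridization controls. Serpinb2, Serpinb1a 1416318_at and Slpi are above 0 and Serpinb6b and Serpinb9 1422601_at below 0 on both sides, while Serpinb6a and Serpinb9 1439790_at change sign between sides.

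The 250 bases before the RefSeq transcription start are shown for Serpinb2 and Slpi, higher in Ly6G+ DC on average, and for Serpinb6b and Serpinb9, so that the letters upstream can be set beside the signals. RefSeq (GRCm38.p6) gave 7 starts for 5 of the 6 members. Serpinb2 has a pair of starts, of which the upstream one is shown, and the windows of Serpinb6a, which differed little, are not printed. The motifs searched on both strands were TTGCNNAA for the C/EBP family of myeloid transcription factors, TGANTCA for AP-1, TATAAA for the TATA box, GAGGAA for the ETS family core, GGANNTTCC for NF-kB and GAAANNGAA for interferon regulatory factors. Matches are in capitals, read 5' to 3' on the gene's strand, and no matches overlapped.
Serpinb2, chr1:107511173-107511422, plus strand: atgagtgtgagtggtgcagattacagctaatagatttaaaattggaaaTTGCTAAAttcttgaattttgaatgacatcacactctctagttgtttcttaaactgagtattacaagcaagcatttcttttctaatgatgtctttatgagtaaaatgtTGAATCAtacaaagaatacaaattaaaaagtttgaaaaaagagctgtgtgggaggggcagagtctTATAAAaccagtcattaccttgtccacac
Slpi, chr2:164356508-164356757, minus strand: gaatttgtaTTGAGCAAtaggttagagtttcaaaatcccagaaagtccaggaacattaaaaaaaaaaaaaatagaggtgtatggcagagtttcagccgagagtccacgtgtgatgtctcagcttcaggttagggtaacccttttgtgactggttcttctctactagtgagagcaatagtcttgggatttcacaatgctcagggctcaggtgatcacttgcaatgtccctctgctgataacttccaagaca
Serpinb6b, chr13:32965011-32965260, plus strand: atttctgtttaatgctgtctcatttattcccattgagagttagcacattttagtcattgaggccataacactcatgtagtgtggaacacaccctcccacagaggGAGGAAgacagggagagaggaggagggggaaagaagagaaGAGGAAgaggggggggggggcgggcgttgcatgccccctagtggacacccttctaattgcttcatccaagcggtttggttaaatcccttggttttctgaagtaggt
Serpinb9, chr13:33004291-33004540, plus strand: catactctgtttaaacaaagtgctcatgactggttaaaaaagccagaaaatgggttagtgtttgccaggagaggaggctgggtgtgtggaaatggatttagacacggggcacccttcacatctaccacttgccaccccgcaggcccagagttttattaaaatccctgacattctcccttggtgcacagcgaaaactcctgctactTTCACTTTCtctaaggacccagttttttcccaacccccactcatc

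Upstream of Serpinb2 the C/EBP letters stood 202 to 195 bases, the AP-1 letters 94 to 88 bases and the TATA box 29 to 24 bases before the start shown. Counted from its other start, the AP-1 letters stood 181 to 175 and the TATA box 116 to 111 bases upstream, and another C/EBP match stood 19 to 12 bases upstream. Upstream of Slpi the C/EBP letters stood 241 to 234 bases before the start, and no other motif searched was found. Serpinb6b held the ETS core at 2 places, 146 to 141 and 106 to 101 bases before the start. Serpinb9 held the interferon regulatory factor letters 45 to 37 bases before the start, and so did Serpinb6a 83 to 75 bases before 1 of its 2 starts, with 0 matches at the other. Of 32851 promoter windows of the same length, 9.56% held the C/EBP letters, 6.75% AP-1, 12.4% the TATA box, 23.3% the ETS core, 3.59% the NF-kB letters and 7.13% the interferon regulatory factor letters. A match describes letters in the window and is neither a binding site nor a cause of the signals above.

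The patterns most like those of the members over the 6 arrays were found by Pearson's r of log2(signal + 16), among 6854 or 6855 genes whose mean log2 value lay above the 60th percentile of kept probe sets. The 6 arrays share the split by group and by side, so a high r is a description only. For Serpinb1a 1416318_at the nearest were Mtus1, Mmp9, the gelatinase of neutrophil granules, and Tmx4, with r of 0.995, 0.994 and 0.993; these rest in part on the 3 Ly6G- DC arrays, where Serpinb1a was under the 40th percentile. Serpinb2 had Kiz, Mtus1 and Hps3 nearest, with r of 0.994, 0.993 and 0.987. Mtus1 had signals of 425, 409 and 696 on the Ly6G+ DC arrays, against 128, 263 and 127 in Ly6G- DC.

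Slpi had other nearest genes: Ccr1, a chemokine receptor of myeloid cells, Fuca1, a lysosomal fucosidase, and Lmbrd1, with r of 0.998, 0.996 and 0.996. Ccr1 had signals of 5133, 2158 and 4985 on the Ly6G+ DC arrays, against 3224, 1703 and 1024 in Ly6G- DC, with the same order of arrays as Slpi. Serpinb6b was nearest to Ccdc88a, Prpsap1 and Cep57l1 (r of 0.998, 0.994 and 0.993). Serpinb6a was nearest to Kif1b, Ehbp1l1 and Gatd1 (r of 0.997, 0.997 and 0.996), which were all highest on Ly6G- DC 1 and next on Ly6G+ DC 1, as Serpinb6a was. Serpinb9 1422601_at was nearest to Eipr1, Tnfrsf4, which encodes the costimulatory receptor OX40, and Uvrag (r of 0.981, 0.981 and 0.98).

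The proteases that these inhibitors act on were measured on the same arrays. Elane, neutrophil elastase, had signals of 242, 242 and 45.9 on the Ly6G+ DC arrays, against 34.4, 67.6 and 172 in Ly6G- DC, and the groups overlapped (log2 fold change 0.79 ± 0.65, SE). Prtn3, proteinase 3, had 505, 484 and 417 on the Ly6G+ DC arrays, against 394, 594 and 1187 in Ly6G- DC (-0.47 ± 0.39, SE). Elane and Serpinb1a thus differed in order: Ly6G+ DC 3 had the highest Serpinb1a signal and the lowest Elane signal of its group. Ctsg, cathepsin G, was above the 40th percentile on 2 of 6 arrays and was not kept. Ctsc, the peptidase that activates these proteases, averaged 10808 ± 1467 in Ly6G+ DC, against 7921 ± 2759 in Ly6G- DC (± SD, 3 arrays each). None of the 3 kept genes passed limma's test, with a smallest adjusted p of 0.85.

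Of the plasminogen activation genes, Plau encodes urokinase, the target of Serpinb2, and averaged 98.6 ± 54.5 in Ly6G+ DC, against 69.9 ± 16.2 in Ly6G- DC (± SD, 3 arrays each). For Plau, Ly6G+ DC 2 (36.0) and Ly6G- DC 3 (52.6) lay under their 40th percentiles of 56.8 and 61.7. Plat, tissue plasminogen activator, was lower on every Ly6G+ DC array, at 46.0, 50.5 and 61.5, against 90.2, 82.8 and 78.8 in Ly6G- DC. Of all kept genes 7.81% were lower in this way. Plat on Ly6G+ DC 1 and 2 lay under their 40th percentiles of 46.6 and 56.8, so its order rests on dim signals. Plaur, the urokinase receptor, had a log2 fold change of 0.69 ± 0.42 (SE). None of the 3 passed limma's test, with a smallest adjusted p of 0.84.

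Among the WAP, Kunitz and Kazal type inhibitors, 29 listed genes were on the array apart from Slpi and 18 were kept. These 18 include A2m (log2 fold change -0.19), alpha-2-macroglobulin, which is of none of these types. Of the 18, 7 had positive and 11 negative log2 fold changes, with a median of -0.32 beside -0.07 over all 13262 kept genes. By limma 0 passed after adjustment over all probe sets, and at an unadjusted p under 0.05 there were 2 higher and 1 lower, where 3.09% of all kept genes were higher and 3.23% lower. The 2 brightest were relatives of Slpi in the WAP family. Wfdc21 had signals of 4770.4, 4118 and 9316 on the Ly6G+ DC arrays, against 1730.0, 2485 and 961 in Ly6G- DC (log2 fold change 1.81 ± 0.43 SE, adjusted p = 0.781 by limma). It did not overlap between groups and, like Serpinb2, was highest on Ly6G+ DC 3 and, within Ly6G- DC, on number 2. Wfdc17 had 7169, 2487 and 3951 on the Ly6G+ DC arrays, against 3838, 2253 and 1166 in Ly6G- DC, and overlapped as Slpi did.

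With Wfdc21, 2 of the 18 were higher on every Ly6G+ DC array, where 4.97% of all kept genes were, and 2 were lower, where 7.81% were. The other 3 of these genes were named after their values were seen. Wfdc18 was at least 1.99-fold higher in Ly6G+ DC. Spint2, a membrane-bound Kunitz inhibitor, averaged 1542 ± 355 in Ly6G+ DC, against 3411 ± 1618 in Ly6G- DC (± SD, 3 arrays each), with a log2 fold change of -1.06 ± 0.37 (SE). Its highest array was Ly6G- DC 3, as for Serpinb6b. The probe sets of Spint2 and Wfdc18 are of kinds that can bind other transcripts. Wfdc15b had a log2 fold change of -0.52 ± 0.39 (SE).

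Of the other clade B serpins, 13 were on the array and 4 kept, and 0 passed limma's test (smallest adjusted p = 0.836, with 0 at an unadjusted p under 0.05). Serpinb6e, whose probe set is of the kind that can bind related transcripts, averaged 323 ± 8.29 in Ly6G+ DC, against 433 ± 49.7 in Ly6G- DC, and Serpinb8 averaged 293 ± 74.5 in Ly6G+ DC, against 168 ± 97.3 in Ly6G- DC (± SD, 3 arrays each). Serpinb6e, 1 of these 4, was lower on every Ly6G+ DC array, where 7.81% of all kept genes were. Of the serpins of other clades, 22 were on the array and 9 kept, with a median log2 fold change of -0.38 and again 0 passing (0 at an unadjusted p under 0.05). Their brightest, Serpina10, had 83.6, 125 and 67.4 on the Ly6G+ DC arrays, against 57.1, 70.9 and 25.8 in Ly6G- DC, and the groups overlapped, with log2 fold changes of 0.32 within the low and 1.23 within the high side. The high side value rests in part on Ly6G- DC 3, under its 40th percentile of 61.7. The Serpina10 probe set is also of a kind that can bind other transcripts. Serpinf2, next in brightness, was lower on every Ly6G+ DC array and at least 1.53-fold lower on average. Of these 9, 1 was lower on every Ly6G+ DC array, beside 7.81% of all kept genes. Granzymes and mast cell proteases had 5 kept of 18 on the array, with 0 passing limma's test and 1, Gzmm, at an unadjusted p under 0.05. By limma, 3.09% of all kept genes were higher at that unadjusted p. Gzmm, the brightest, was higher on every Ly6G+ DC array, at 101, 128 and 113, against 91.6, 17.1 and 20.5 in Ly6G- DC, with log2 fold changes of 0.19 within the low and 2.05 within the high side. The high side value rests on Ly6G- DC 2 and 3, both under their 40th percentiles of 59.5 and 61.7. As a bound, Gzmm was at least 1.51-fold higher in Ly6G+ DC. Of these 5, 1 was higher on every Ly6G+ DC array, beside 4.97% of all kept genes. Tpsg1, next in brightness, had 9.89, 75.3 and 45.6 on the Ly6G+ DC arrays, against 15.2, 72.7 and 208 in Ly6G- DC. Its groups overlapped, and the sign turned between the sides (0.36 within the low and -0.63 within the high side). Number 1 of both groups lay under its 40th percentile, so the low side value rests on dim signals. Gzmb, added after its values were seen because Serpinb9 acts on its product, had 30.6, 89.1 and 21.4 on the Ly6G+ DC arrays, against 56.0, 57.2 and 78.8 in Ly6G- DC.

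**Figure D4:**
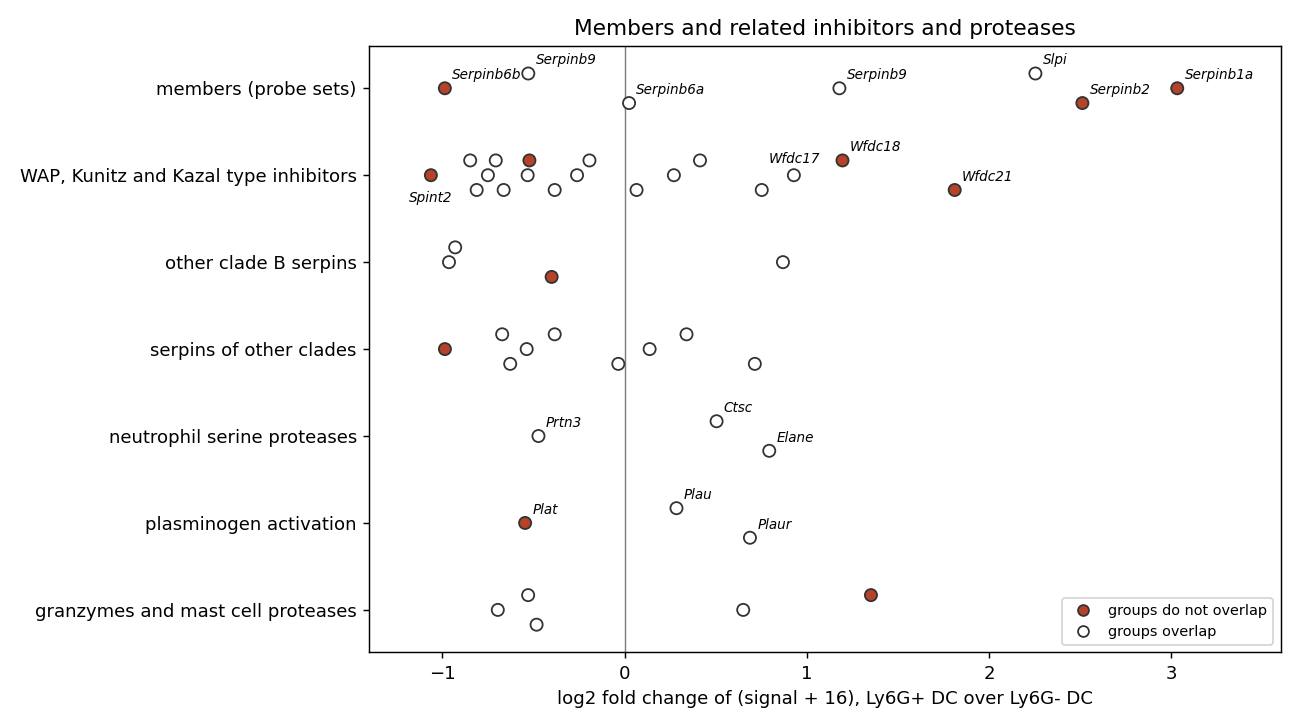
Log2 fold change of (signal + 16), Ly6G+ DC over Ly6G- DC, of the 7 kept member probe sets (top row) and of 42 kept genes in 6 lists of related inhibitors and proteases, 1 point each, filled where the groups do not overlap. The 42 genes lie on both sides of 0, up to Wfdc21 at 1.81; the place of the members was fixed by their choice, and the Serpinb1a point depends on dim Ly6G- DC signals.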

How the data were processed

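The deposited values are linear signal intensities per probe set, which the authors scaled so that the mean of every array, trimmed by 2% at either end, was 250.0. Per the submitters' processing notes, Affymetrix Expression Console 2.0, MAS5 and GCOS were used; other settings are not stated there. MAS5 subtracts mismatch signal, so low signals are imprecise, and a common mean makes each value depend on the brightest probe sets of its array. Probe sets were named from the platform annotation where it gave 1 symbol (34958 of 45101).

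Signals were taken as log2(signal + 16), 64 control probe sets were left out of tests, and probe sets above the 40th percentile on at least 3 arrays were fitted with limma 3.58.1 in R 4.3.3 (group alone, eBayes with trend, Benjamini-Hochberg adjustment, threshold 0.05). The code was tested on simulated data. Related genes are represented by their brightest kept probe set; lists are named in full or by their 2 brightest genes and those past the threshold, and each member has its 3 most alike genes. Where the dimmer group lay under the mean 40th percentile, the fold of a related gene, where given, and of Serpinb1a is a bound against that percentile or the signal, whichever is higher. Log2 fold changes within a side and those plotted are not bounds, also for dim genes such as Serpina10, Gzmm and Tpsg1. Members, lists, motifs and alternatives were chosen with earlier results of these data known. Array number limits the precision.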

Additional observations from a re-analysis of the deposited data

How the results depend on the processing

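The directions of Serpinb2, Slpi, Serpinb6b and Serpinb9 1422601_at were kept in all 15 alternatives run for each, but some of these could not change a direction. The replicate block and the array name block returned the main value of every member probe set, since both groups hold the same numbers and names. For Serpinb2 and Serpinb6b, groups without overlap fix the direction when an array is left out and within either side. They also fix it with another number added before taking logs. The log2 fold changes were 2.07 to 3.09 for Serpinb2, 1.30 to 3.08 for Slpi and -1.29 to -0.56 for Serpinb6b. Serpinb6a changed sign in 6 of 15 (-0.59 to 0.36) and Serpinb9 1439790_at in 1 of 15 (-0.62 to 2.27). The median over the kept member probe sets was 0.54 to 2.02 with 1 array left out, -0.56 within the low and 1.67 within the high side of the hybridization controls. With 1 array left out, 1 to 4 kept probe sets were higher on every Ly6G+ DC array (1 without Ly6G+ DC 1 or Ly6G+ DC 3, 4 without Ly6G- DC 1) and 1 to 2 lower (2 without Ly6G+ DC 1 or Ly6G- DC 2). Without any 1 of the Ly6G+ DC arrays, 6 member probe sets were kept in place of 7. The one lost was that of Serpinb1a, which was above the 40th percentile on the 3 Ly6G+ DC arrays alone. The fall to 1 higher is thus a loss of Serpinb1a to the filter and not a loss of separation. The lowest median with 1 array left out, 0.54, is also a median over such a set of 6. The number lower was 2 after quantile normalization and 0 with a common median. Within the low side 3 were higher and 4 lower, and within the high side 5 and 2, where 2 arrays face 1; these within-side counts were added after seeing the data. Over the whole table limma called 0 to 1 probe sets with 1 array left out (1 without Ly6G- DC 2), 21 with the array name as a block, 19 with the replicate block and 0 in the other alternatives, where 944 to 2630 had an unadjusted p under 0.05. By their deviations from group means, same-numbered arrays had r of 0.52, 0.26 and -0.04 for numbers 1, 2 and 3. Arrays of unlike number had r of -0.49 to 0.32. With 3 arrays per group these values cannot decide whether the numbers pair the arrays. Number 1 of both groups shares the array name and the low side, and number 2 shares the high side. Whether same-numbered arrays share a culture is not stated in the labels. None of the 42 related genes was called with either block. Of the kept member probe sets, 1 was called with the array name as a block and 0 with the replicate block. Since the members were chosen on this contrast, that call carries no further weight. The number of arrays and dim signals limit the values of Serpinb1a in Ly6G- DC.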
